A study of Arabidopsis thaliana with 36 samples.

Results

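Xylem of an Arabidopsis thaliana line labelled as a MYB61 knockout was compared with xylem of wild-type Col-0, using the 3 arrays of each group, 6 of the 36 arrays of a series on dormancy and secondary growth. The arrays were chosen by their labels, which give the tissue and the genotype. Each array of the series took total RNA of 200 to 400 pooled plants, hybridised to the ATH1 array, which carries 22810 probe sets. The plants were grown on compost at 22 °C under 24 h of light after 2 days at 4 °C, so both groups shared these conditions. Neither the allele behind the knockout, the number of lines, the plant age nor the way xylem was separated from other tissue is given in the labels. The replicates are numbered, but nothing says that their plants were grown apart. The p-values therefore measure a spread between pools, estimated over all 36 arrays in 12 groups and not from these 6 alone.

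MYB61 encodes a transcription factor of the R2R3-MYB family. In Arabidopsis it is known for roles in xylem formation, in the closing of stomata and in the mucilage of the seed coat, and it is regarded as a regulator of how carbon is allotted to sink tissues. Xylem is the water-conducting and supporting tissue of the vascular system, whose cells lay down thick secondary walls of cellulose, xylan and lignin.

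No probe set was named as MYB61 in the annotation used here, so the knockout could not be checked by the level of its own transcript. The knockout did carry the Col-0 pattern of accession-dependent probe sets. In 16 probe sets above 100 on every Col-0-background hypocotyl array and under 30 on every Ler-background one, the summed intensity was 2487 to 2806 in knockout xylem and 2766 to 3014 in Col-0 xylem, against 140.1 to 177.4 in Ler hypocotyls. This set was picked after the values were seen, and it bears on the accession, not on the allele. Phloem markers and FACT separated xylem from the tissue labelled cork, which was sampled in the same genotypes and was also rich in phloem markers. The 4 phloem markers summed to 102.2 to 110.4 in Col-0 xylem and 98.3 to 103.3 in knockout xylem, compared with 538.1 to 548.0 in Col-0 cork. FACT, which makes the caffeoyl esters found with suberin, lay between 11.7 and 21.4 on the 6 xylem arrays and between 109.0 and 120.8 in Col-0 cork. None of the 6 secondary wall cellulose genes listed had a named probe set, so the usual xylem markers among them were not analysed here. The 4 xylan synthesis probe sets summed to 295.9 to 500.9 in Col-0 xylem and 222.9 to 258.5 in Col-0 cork. In the knockout they overlapped, at 278.4 to 387.2 in xylem and 246.8 to 282.0 in cork. The 2 lignin probe sets did not overlap there, at 1078 to 1480 in knockout xylem and 675.1 to 773.0 in knockout cork.

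Across the xylem and cork arrays of both genotypes, median intensity was 35.1 to 42.3, and 31.3% to 37.1% of probe sets lay under 16, the value added before taking logs. The scanner background was 85.37 to 123.77 in Col-0 xylem and 94.28 to 106.24 in knockout xylem, and actin probe sets at the 3' end read 1.07 to 1.35 times those at the 5' end in Col-0 and 1.16 to 1.27 times in the knockout, a sign of RNA integrity. Both measures were highest on Col-0 replicate 3. Knockout xylem replicate 2 stood somewhat apart, with 810 outlier cells in its scan and an array weight of 0.449 where 1 is average. Calls that were lost without it are named as such.

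Few probe sets passed the test between the genotypes, and most of those that passed with a difference of 2-fold or more were rises. In the fit across all 12 groups, limma called 299 of 15924 tested probe sets at an adjusted p under 0.05, or 1.88%. Of these, 194 were higher in the knockout (1.22% of those tested) and 105 were lower (0.659%). A difference of at least 2-fold was reached by 81 of the higher and 16 of the lower ones. Before adjustment, 1904 of the tested probe sets had a limma p under 0.05. The higher group included ORA47, CML38, STZ and GRX480 of the early stress list and many genes known only by a locus number, and the lower group included LHCB4.2 and ATPC1 of the nuclear photosynthesis list. In bulk RNA, fewer cells of a type and less RNA per cell cannot be told apart.

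These counts depend on how the spread was estimated. With only the 6 xylem arrays in the fit, 39 probe sets passed, 32 higher and 7 lower, and 36 of them were among the 299. Without knockout replicate 2 the count was 174, and the lead of rises over falls was lost, at 89 and 85. Without Col-0 replicate 3 it was 193, at 126 and 67. The median log2 difference over all tested probe sets was -0.016. The groups did not overlap in 182 of the 194 higher and 97 of the 105 lower probe sets. Over all tested probe sets the knockout arrays lay wholly above the Col-0 arrays in 6.07% and wholly below them in 8.99%. The called probe sets were picked by this same contrast, so their separation follows largely from that choice and is no further evidence.

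The rises were uneven between the knockout pools. Over the 194 higher probe sets, the median log2 deviation from the Col-0 mean was 0.83, 1.3 and 0.66 in knockout replicates 1, 2 and 3, and between -0.02 and 0.01 in the Col-0 replicates. The falls were even, at -0.72, -0.65 and -0.68 in the knockout and -0.10, -0.04 and 0.11 in Col-0. These values describe probe sets that were chosen by the same contrast.

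**Figure D1:**
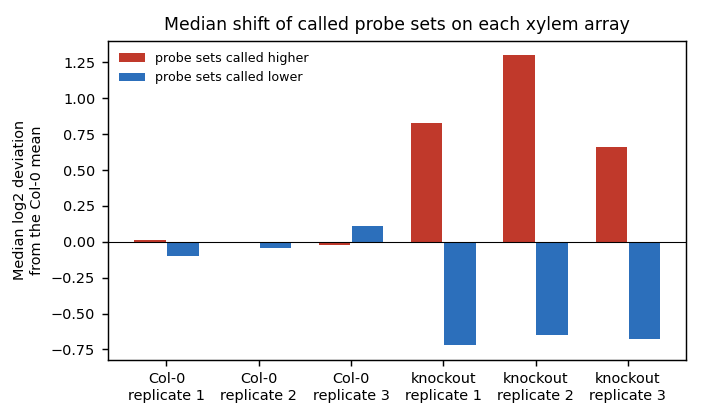
Bars give the median deviation from the Col-0 xylem mean, in log2 units, of the 194 probe sets called higher (red) and the 105 called lower (blue) on each of the 6 xylem arrays. Knockout replicate 2 has the largest upward shift, 1.3, while the downward shifts of the 3 knockout arrays lie between -0.72 and -0.65.

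Among early stress and touch regulators, a list of 46 genes that respond quickly to wounding, cold, touch or oxidative stress, 7 probe sets were tested. Of these 4 rose and 0 fell, beside 1.22% and 0.659% of all tested probe sets, and the median log2 difference was 1.12 against -0.016 over all probe sets. The 4 were ORA47, CML38, STZ and GRX480. This list, like the others used here, was written with earlier results of these data known, so its counts are a description. Without knockout replicate 2 the median was 0.69 and 2 were called, and 2 were also called without Col-0 replicate 2, without Col-0 replicate 3 and with the 6 xylem arrays alone.

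ORA47 encodes an AP2/ERF transcription factor that responds to jasmonate. Its intensity was 544.4, 729.0 and 408.8 in the knockout replicates and 88.3, 123.4 and 115.8 in Col-0. The lowest knockout value was more than 3 times the highest Col-0 value. The means were 561 ± 161 and 109 ± 18.5 (SD, n = 3), a 5.14-fold rise (log2 2.18, SE 0.27, limma adjusted p = 1.3e-05), and ORA47 stayed called under all 17 alternative settings tried (adjusted p at most 0.025).

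CML38, a calmodulin-like calcium sensor, stood at 359.7, 745.3 and 387.2 in the knockout and 140.8, 126.0 and 136.9 in Col-0. All knockout arrays were above all Col-0 arrays, with replicate 2 highest. The rise was 3.70-fold (log2 1.69, SE 0.27, limma adjusted p = 0.00024), and its single lost call was with the 6 xylem arrays alone (adjusted p = 0.051). Of 7 calmodulin-like probe sets tested, 1 was called, CML38, beside 1.22% of all, and 2 were called with a pseudocount of 1 and 0 with the 6 xylem arrays alone. CML37 was at 19.9, 55.1 and 11.7 against 3.8, 6.9 and 0.5, near the floor in Col-0 (adjusted p = 0.13). CML23 was at 312.3, 392.9 and 303.1 against 189.8, 225.3 and 214.2 (log2 0.64, adjusted p = 0.26). Both were higher on every knockout array without passing the test.

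STZ, also known as ZAT10, is a zinc-finger repressor induced by salt, drought and cold. It was bright in both groups, at 1388.6, 2090.0 and 1689.8 in the knockout and 789.8, 784.5 and 725.6 in Col-0. The groups were well separated (log2 1.13, SE 0.27, limma adjusted p = 0.018). GRX480, a glutaredoxin that binds TGA transcription factors, was at 411.5, 836.9 and 270.3 against 150.8, 231.4 and 231.6 (log2 1.12, SE 0.29, adjusted p = 0.036). GRX480 lost its call under 9 of the 17 alternatives, and STZ under 3, among them for both the fit without knockout replicate 2. The WRKY factors of the list were not called: WRKY22 was at 35.6, 94.3 and 40.9 against 27.4, 37.6 and 38.6, and WRKY53 at 14.8, 21.3 and 27.2 against 13.0, 17.2 and 10.0. Their groups overlapped. Over all 5 WRKY probe sets tested, 0 were called and the median log2 difference was 0.11.

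**Figure D2:**
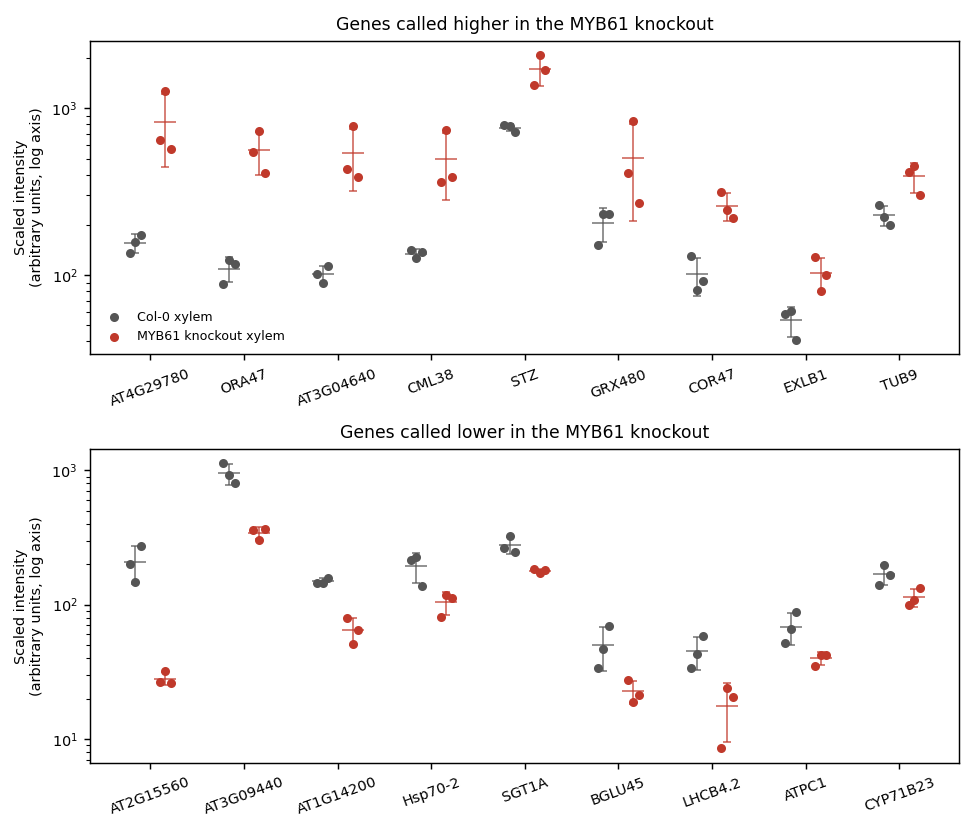
Scaled intensity on a log axis of 9 genes called higher (upper panel) and 9 called lower (lower panel) in the knockout, with 1 point per array, a dash at the mean and bars of 1 SD. In each of the 18 genes the 3 red knockout points and the 3 grey Col-0 points do not overlap. All 18 were called by this same contrast, and those among the largest rises and falls were picked for having no overlap. Their separation therefore follows largely from the choice of genes and is no further evidence.

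Most of the largest rises were genes with no symbol in the annotation used here. Of the 25 largest among called probe sets with 1 gene and no overlap, with log2 differences from 1.19 to 2.22, 4 had a symbol (ORA47, CML38, COR47 and AR781). AT4G29780 was at 647.5, 1276.4 and 567.4 in the knockout and 135.5, 156.8 and 174.7 in Col-0 (log2 2.22, SE 0.31, limma adjusted p = 5.1e-05). AT3G04640 was at 432.7, 788.8 and 388.6 against 101.9, 89.3 and 113.4 (log2 2.17, SE 0.29, adjusted p = 3.2e-05). AT1G19210 was at 123.6, 280.1 and 94.9 against 20.7, 25.4 and 29.7 (log2 2.01, SE 0.27, adjusted p = 3e-05). In these 3 genes, as in 13 of the 25, the lowest knockout array was at least 2 times the highest Col-0 array.

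AT2G27080 (log2 1.95), AT5G58680 (1.64), AT1G74450 (1.61), AT3G05500 (1.54) and AT1G18740 (1.54) followed with adjusted p of 4.2e-05 or below. AT1G61890 showed how far the pools could part: it was at 145.1, 592.4 and 68.1 in the knockout and 45.3, 45.6 and 47.4 in Col-0. Its rise (log2 1.70, SE 0.41, adjusted p = 0.019) was not called without knockout replicate 2. Replicate 2 was the highest knockout array in 22 of the 25 genes and the lowest in 0. The 6 that kept their call under every alternative were AT4G29780, ORA47, AT3G04640, AT1G18740, AT4G27654 and COR47, the last with a highest adjusted p that rounds to 0.05.

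COR47 encodes a dehydrin that accumulates under cold, drought and abscisic acid (ABA). It was at 315.2, 244.1 and 221.1 in the knockout and 129.6, 80.8 and 91.9 in Col-0, and knockout replicate 1 was the highest, as it was for AT4G30650 (270.0, 186.1 and 151.0) and AT1G11210 (403.4, 368.0 and 223.3), whose call was lost without knockout replicate 2. The rise was 2.58-fold (log2 1.25, SE 0.20, limma adjusted p = 0.00036). COR47 was the 1 gene called of 3 tested from a list of 25 ABA, drought and cold genes, beside 1.22% of all tested probe sets called higher. The median log2 difference of the 3 was that of COR47 itself, 1.25, against -0.016 over all. LTI30, another dehydrin, was at 239.7, 338.0 and 111.8 against 213.5, 45.9 and 42.3, so the groups overlapped through Col-0 replicate 1 (adjusted p = 0.10). COR15B, a protective protein of the chloroplast stroma, was at 24.2, 28.4 and 14.3 against 26.9, 23.7 and 9.6 and was not called (adjusted p = 0.89).

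The other called rises with a symbol are listed because they have one, a choice made after their values were seen. EXLB1, of the expansin-like family of wall proteins, was at 128.1, 79.8 and 100.5 against 58.7, 61.1 and 40.6 (log2 0.77, SE 0.17, adjusted p = 0.0092). TUB9, a beta-tubulin, was at 416.9, 453.4 and 300.3 against 263.1, 222.4 and 199.3 (log2 0.72, SE 0.17, adjusted p = 0.019). Knockout replicate 2 was the highest array for TUB9 and the lowest of the knockout arrays for EXLB1. The tetraspanin membrane protein genes TET8 (log2 0.70, adjusted p = 0.005) and TET9 (log2 0.95, adjusted p = 0.002) rose, TET9 from a Col-0 mean of 5.83, under the value of 16. SUFE2, of plastid iron-sulphur cluster assembly, rose by log2 0.76 (adjusted p = 0.03), RING1, a RING-type ubiquitin ligase, by 0.57 (adjusted p = 0.0027), SRC2, a C2-domain protein, by 0.55 (adjusted p = 0.005), and AR781 by 1.19 (adjusted p = 0.017). The calls of TET8, RING1, SRC2, TUB9, SUFE2 and AR781 were lost without knockout replicate 2, and all 8 were lost with the 6 xylem arrays alone. Of 9 expansin probe sets tested, 1 was called, EXLB1, beside 1.22% of all, and it was not called without knockout replicate 1 or without Col-0 replicate 3. EXLA3, at 31.2, 172.8 and 47.2 against 20.7, 26.2 and 39.1, was not called (adjusted p = 0.14).

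The largest fall was in AT2G15560, which was at 26.7, 31.8 and 26.1 in the knockout and 202.4, 146.4 and 273.9 in Col-0. The knockout arrays lay close together and far below every Col-0 array. The mean was 7.36-fold higher in Col-0 (log2 -2.30, SE 0.20, limma adjusted p = 2.4e-08), and the call held under all 17 alternatives. AT3G09440 fell from 1131.8, 918.8 and 803.0 in Col-0 to 358.5, 305.4 and 367.9 (log2 -1.42, SE 0.15, adjusted p = 2.1e-06). AT1G14200 fell from 145.9, 144.8 and 159.3 to 80.0, 50.6 and 64.7 (log2 -1.05, SE 0.15, adjusted p = 9.2e-05). These 3 genes, AT3G07090 (log2 -0.79) and AT5G66670 (log2 -0.70) were the falls among the 25 largest that kept their call under every alternative.

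Of the called falls with a symbol, 4 are given next, chosen after their values were seen and forming no list that was tested. Hsp70-2, a cytosolic Hsp70 that binds unfolded proteins, was at 81.6, 117.6 and 112.6 in the knockout and 215.1, 227.3 and 138.6 in Col-0 (log2 -0.79, SE 0.15, adjusted p = 0.0023). Fes1A, which acts on Hsp70 as an exchange factor, was at 155.4, 139.0 and 159.2 against 241.6, 223.6 and 201.3 (log2 -0.51, SE 0.11, adjusted p = 0.0083). SGT1A, a co-chaperone of Hsp90 in plant immunity, was at 184.6, 172.7 and 181.8 against 262.7, 322.5 and 246.8 (log2 -0.58, SE 0.13, adjusted p = 0.01). In all 3 every knockout array lay below every Col-0 array. Cpn60beta2, a subunit of the plastid chaperonin, was at 27.0, 29.4 and 51.3 against 62.7, 68.3 and 76.4 (log2 -0.74, SE 0.16, adjusted p = 0.0058). Without knockout replicate 2, Fes1A, SGT1A and Cpn60beta2 were not called, while Hsp70-2 was, and none of the 4 was called with the 6 xylem arrays alone. The list of heat shock proteins held no probe set under the naming rule used, although Hsp70-2 itself has a named one. No count over that family is therefore given, and these 4 genes do not stand for it.

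None of the secondary wall genes listed passed the test, with 0 of 1 lignin gene and 0 of 4 xylan genes called, beside 1.88% of all tested probe sets. BGLU45 is in none of the lists and is named as one of the 25 largest falls. BGLU45, a beta-glucosidase that acts on the glucosides of lignin precursors, was at 27.6, 19.0 and 21.4 in the knockout and 33.6, 47.1 and 69.9 in Col-0. The groups did not overlap, and Col-0 replicate 3 was highest (log2 -0.75, SE 0.13, adjusted p = 0.0011). Its call was lost with the 6 xylem arrays alone in the fit (adjusted p = 0.3, the highest over the 17 alternatives). HCT, an enzyme of the lignin pathway, was at 1077.1, 1479.6 and 1248.0 against 1235.8, 1382.5 and 1821.9 and was not called (log2 -0.21, adjusted p = 0.54).

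Of the 4 xylan synthesis genes tested, of 13 listed, 0 were called, and their median log2 difference was -0.16, or 0.09 without Col-0 replicate 3 and -0.01 without knockout replicate 3. GUT2 (IRX10), a xylan synthase component, was at 103.0, 102.1 and 71.3 against 76.8, 96.6 and 165.1, and its close relative GUT1 at 171.0, 179.2 and 167.1 against 174.7, 198.4 and 162.9. IRX15, needed for normal xylan, was at 21.1, 35.7 and 10.5 against 5.6, 18.4 and 94.1, and IRX15-L at 49.8, 70.2 and 29.5 against 38.8, 47.8 and 78.8. The groups overlapped in all 4. The spread of IRX15 within Col-0 was wide, at 39.4 ± 47.8 (SD, n = 3), and the SE of its log2 difference was 0.31. The wall regulators, xylem cell death genes, fibre arabinogalactan proteins and genes reported downstream of MYB61 had no named probe set, and the 1 laccase named was not bright enough to be tested.

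Cambium and phloem genes did not pass the test. PHV, a class III HD-ZIP factor of vascular patterning, was at 637.4, 607.0 and 606.1 in the knockout and 720.5, 640.9 and 670.4 in Col-0 (log2 -0.13, adjusted p = 0.69). MOL1, a receptor-like kinase that restrains the cambium, was at 74.7, 65.9 and 71.6 against 71.0, 61.3 and 71.8 (log2 0.05, adjusted p = 0.93). The 4 phloem genes CLE41, CLE44, SWEET11 and OPS had log2 differences of -0.16 to 0.07, and FACT of -0.16 (adjusted p = 0.65).

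The differences of photosynthesis genes lay mostly below 0. Of 9 nuclear photosynthesis genes tested, 0 rose and 2 fell, beside 0.659% of all probe sets that fell, 8 were below 0, and the median log2 difference was -0.53 against -0.016 over all. LHCB4.2, an antenna protein of photosystem II, was at 8.5, 24.0 and 20.7 in the knockout and 34, 42.9 and 58.9 in Col-0 (log2 -0.87, SE 0.20, adjusted p = 0.011). ATPC1, a subunit of the chloroplast ATP synthase, was at 35.1, 42.4 and 42.5 against 52.0, 65.8 and 87.7 (log2 -0.57, SE 0.14, adjusted p = 0.026), and was not called without knockout replicate 2 (log2 -0.61). Col-0 replicate 3 was highest for both. The other members gave differences without calls, among them PSAE-1 of photosystem I (log2 -0.57, adjusted p = 0.12) and PSBW of photosystem II (log2 -0.53, adjusted p = 0.17).

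The summed intensity of the 9 genes was 857.0 to 1398 in Col-0 and 718.5 to 806.8 in the knockout, so the groups did not overlap. Without Col-0 replicate 3 the median was -0.31 and 0 of 9 were called, and 0 were called without knockout replicate 1 as well. With the 6 xylem arrays alone 0 were called, at a median of -0.53. With a pseudocount of 64 also 0 were called, at a median of -0.31. With the scanner background or the actin ratio as a covariate the median stayed at -0.53, with 8 of 9 below 0 and 2 called. Both measures had nearly equal means in the 2 groups. These fits could therefore hardly move the difference, and they say nothing on the part played by Col-0 replicate 3. Among 69 plastid-encoded probe sets, 61 were below 0 with a median of -0.19, and 1 was called, ndhE of the plastid NDH complex, at 149.3, 147.7 and 82.9 against 218.0, 163.3 and 303.3 (log2 -0.77, SE 0.21, adjusted p = 0.047). Its call was lost under 11 of 17 alternatives, among them the fit without knockout replicate 2 (log2 -0.89). Without Col-0 replicate 3 the plastid median was -0.10, with 50 of 69 below 0. Of 15 mitochondrion-encoded probe sets 0 were called, with a median of 0.01.

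Other families gave few calls. CYP71B23 was the 1 member called lower of 7 cytochrome P450 probe sets, beside 0.659% of all, at 99.7, 108.9 and 132.0 against 140.8, 196.3 and 167.7 (log2 -0.51, SE 0.13, adjusted p = 0.036), and it lost its call under 8 alternatives, with a log2 difference of -0.48 without knockout replicate 2. Of 27 UDP-glycosyltransferases 0 were called, with differences between -0.29 and 0.23. The 9 glutathione transferases (-0.16 to 0.11), 7 U-box ubiquitin ligases (-0.16 to 0.67), 4 class III peroxidases (median 0.20), 4 auxin-responsive genes (-0.28 to 0.04), 3 histones (median -0.17), 3 xyloglucan endotransglucosylases (-0.06 to 0.07) and 2 pectin methylesterases (-0.31 and -0.02) held 0 calls each. Neither the clock gene GI (log2 -0.06) nor APL3 (0.13), a starch synthesis gene that responds to sugar, was called. The U-box ligase PUB22 was at 22.7, 50.8 and 16.8 against 13.9, 9.7 and 11.6, higher on each knockout array but not called (adjusted p = 0.23).

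**Figure D3:**
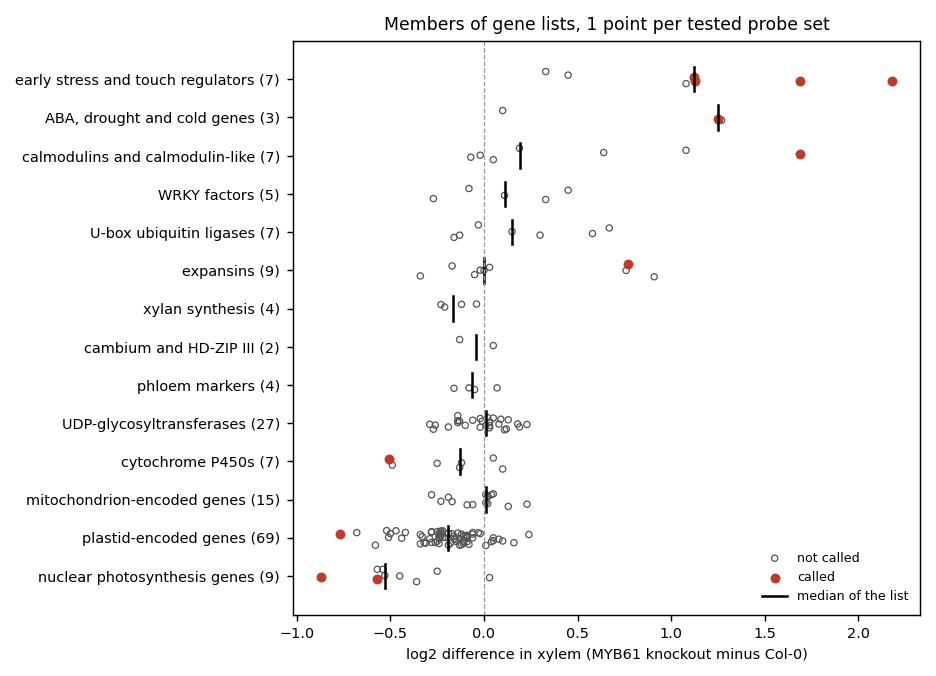
Each point is 1 tested probe set of a gene list, placed at its log2 difference in xylem, filled where it was called, with a bar at the median of the list and the number of probe sets in brackets. The early stress list has 4 called points between 1.12 and 2.18, and the nuclear photosynthesis list has 2 called points at -0.87 and -0.57, with its median at -0.53.

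The same knockout was sampled in cork, on other arrays with their own Col-0 controls. In cork the scanner background did not overlap between the groups, at 69.38 to 75.52 in Col-0 and 89.4 to 120.8 in the knockout. Genotype and scanner background thus go together in cork. Same-numbered xylem and cork samples may come from the same plants, so the tissues may not be independent. In cork limma called 3.89% of tested probe sets higher and 4.11% lower. Of the 194 probe sets higher in knockout xylem, 118 were also called higher in cork, 0 were called lower, and 180 had the same sign. Their median log2 difference was 0.91 in xylem and 0.68 in cork. Of the 105 lower in xylem, 37 were called lower in cork and 0 higher, 98 had the same sign, and the medians were -0.70 and -0.34. Since these probe sets were picked by their xylem difference, the xylem median is the larger one in part by that choice.

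The regulators that rose in xylem were among those shared. ORA47 was at 454.0, 144.9 and 165.6 in knockout cork and 44.4, 49.5 and 37.1 in Col-0 cork (log2 2.01, adjusted p = 1.4e-05). CML38 was at 494.8, 362.6 and 341.6 against 138.5, 118.6 and 101.5 (log2 1.61, adjusted p = 0.00026). Here knockout replicate 1 was the highest for both, in a group where that array had a weight of 0.218. STZ (log2 1.46, adjusted p = 0.00077) and GRX480 (log2 1.21, adjusted p = 0.0081) rose as well. Of the 25 largest rises in xylem 20 were called higher in cork, and of the 25 largest falls 11 were called lower there. AT3G09440 fell as far in cork (log2 -1.45, adjusted p = 3.9e-07) as in xylem, with a difference between tissues of 0.04 (adjusted p = 0.98). AT2G15560 fell in cork from 121.5, 64.1 and 69.2 to 25.1, 36.1 and 26.4 (log2 -1.12, adjusted p = 0.00055), and its difference between tissues, -1.18, did not pass (adjusted p = 0.091).

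By the test of the difference, 18 of 15924 probe sets, or 0.113%, had an effect that differed between the tissues. That count was 150 without knockout cork replicate 1, 6 without Col-0 cork replicate 2, 200 with array weights and 3 when the fit held the 12 xylem and cork arrays alone. COR47 was the only one of the 25 largest rises among them. In cork it was at 418.5, 516.4 and 528.4 in the knockout and 532.4, 537.5 and 566.0 in Col-0, where it was not called lower (log2 -0.16, adjusted p = 0.71). The difference of the effects was 1.41 (SE 0.29, limma adjusted p = 0.035), and its call was lost under 14 of 23 alternatives, 7 of which left out 1 array. Col-0 xylem had the lowest COR47 level of all 12 groups, 101 ± 25.6 against 545 ± 18.1 in Col-0 cork and 265 ± 14.8 in Col-0 hypocotyl (SD, n = 3). BGLU45, EXLB1, SUFE2 and TUB9 were called in xylem and not in cork, but their differences between tissues did not pass (adjusted p of 0.16, 0.44, 0.37 and 0.5).

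**Figure D4:**
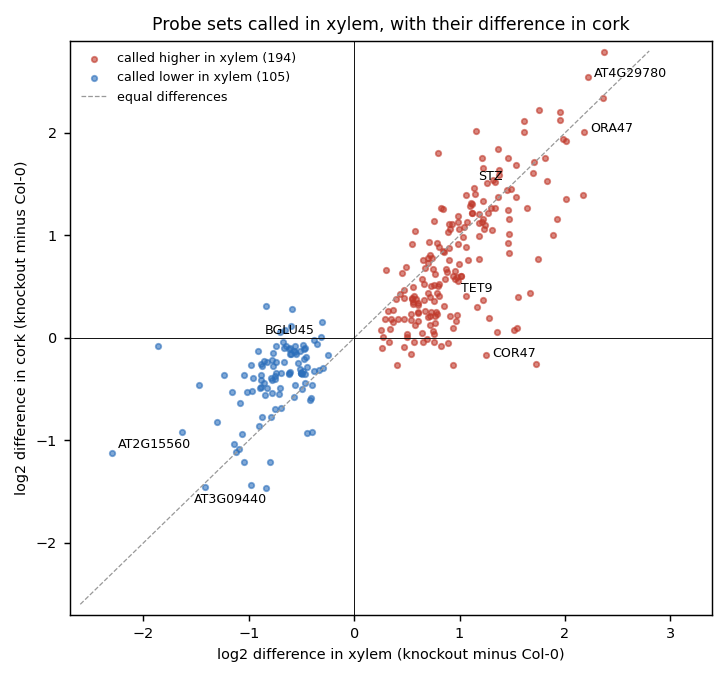
For the 299 probe sets called in xylem, the horizontal axis is the log2 difference between knockout and Col-0 in xylem and the vertical axis the same difference in cork, with a dashed line where both are equal. Most red points (called higher in xylem) lie above 0 in cork, 180 of 194, and COR47 lies just below 0 there.

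The levels of these genes in the other groups were set beside those in xylem as a description. Of the 25 largest rises, 23 had a higher mean in max4 than in Col-0 hypocotyls and 25 in axr1, where 47.0% and 45.6% of all tested probe sets did. Against Ler, 23 had a higher mean in abi1 and 22 in aba1, where 46.8% and 47.2% of all tested probe sets did. The mutants are in strigolactone synthesis (max4), auxin response (axr1), ABA response (abi1) and ABA synthesis (aba1). In 21 of the 25 the highest mean of the 12 groups was in max4 or aba1 hypocotyls. ORA47 had a mean of 955 ± 53.5 in max4 and 781 ± 19.6 in aba1, above its 561 ± 161 in knockout xylem, and 31.8 ± 9.57 in Col-0 hypocotyls.

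AT2G15560 was brightest in Col-0 xylem. Its mean there, 208 ± 63.9, was the highest of the 12 groups, followed by Col-0 cork at 84.9 ± 31.8. The other 10 groups lay between 17.5 and 47.2, including wild-type Col-0 hypocotyls at 31.2 ± 10.9, so the knockout xylem value of 28.2 ± 3.13 was near that of most groups. For 7 of the 25 largest falls Col-0 xylem had the highest mean of the 12 groups. The MYB50 knockout, of a related gene, was compared with the same 3 Col-0 xylem arrays, so its values are given only side by side: in its xylem AT2G15560 was at 26.2 ± 3.70, ORA47 at 743 ± 275 and COR47 at 280 ± 105.

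**Figure D5:**
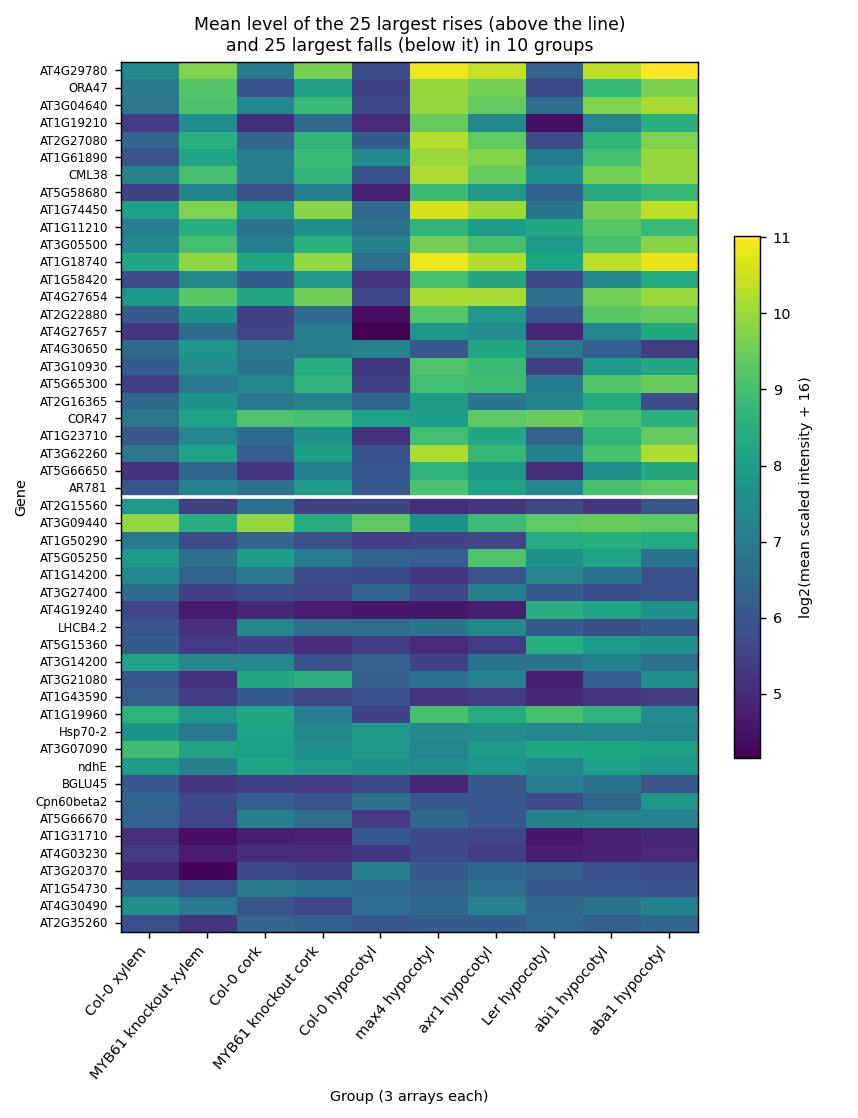
Colour gives log2 of the mean intensity plus 16 in 10 groups for the 25 largest rises (above the white line) and the 25 largest falls (below it), 1 row per gene. Yellow is high and dark blue low, 23 of the 25 rises are higher in max4 than in Col-0 hypocotyls, and AT2G15560 is highest in Col-0 xylem.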

How the data were processed

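The deposited values were linear intensities, 1 per probe set and array. Each array's 2% trimmed mean was 100.01, so these deposited intensities had been scaled array by array. No source used here names the program behind the summary of probes. Scanner background and outlier cells were taken from the labels. Probe sets were named through GEO's platform annotation and RefSeq's TAIR10.1 gene table: 13513 of 22810 had 1 gene, 503 several and 8730 none, and 13484 were found in the gene table. The 64 control probe sets were left out.

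Intensities were taken as log2 of the value plus 16, so log2 differences of dim genes understate their fold. Probe sets with a mean over the 36 arrays of at least 14.7, the 30th percentile, were tested (15924). A model of 12 group means was fitted with limma 3.58.1 in R 4.3.3 (24 residual and 6.26 prior degrees of freedom), so all groups share 1 estimate of the spread. Tests were two-sided, p-values were adjusted by Benjamini-Hochberg over all tested probe sets, and "called" means an adjusted p under 0.05. With 3 arrays a group, their number limits the precision. On simulated data for this comparison over 15924 probe sets, 64.2% of changes of 0.5 (log2), 100% of changes of 1 and 98.5% of changes of 2 were recovered, with 4.89% of calls false. The simulated noise was independent, with the fitted spread, equal in all groups and arrays. These shares therefore do not cover uneven arrays such as knockout replicate 2.

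The genes named are up to 25 called rises and 25 falls with 1 gene and no overlap between groups, called members of each list (up to 4, or the 2 largest differences where none was called), all tested marker genes, up to 5 genes each way for the difference between tissues, and, added later, every called gene with a symbol. Single list members outside this rule (such as CML37, CML23, WRKY22, WRKY53, LTI30, COR15B, EXLA3, PSAE-1 and PSBW) were chosen after their values were seen. The comparison and the lists were chosen with earlier results of these data known. Lists were matched by locus, symbol or synonym, 3 genes caught by a pattern alone were removed from their families, and plastid genes from the nuclear photosynthesis list. Lists on AP2/ERF, MYB and NAC factors, cyclins, ribosomal proteins, jasmonate and heat shock proteins matched no probe set through the names used. For AP2/ERF factors and heat shock proteins this is a limit of the matching rule, since ORA47 and Hsp70-2 have named probe sets. The main fit did not pair samples by replicate number. Same-number correlations of deviations were 0.18, -0.10 and 0.03 between knockout and Col-0 xylem. They ran from -0.16 to 0.33 between knockout xylem and cork, and from -0.03 to 0.15 between Col-0 xylem and cork, so a pairing between tissues was not settled. Tables were prepared with Python 3.11.15, pandas 2.3.3 and numpy 2.4.6.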

Additional observations from a re-analysis of the deposited data

Results flagged for a closer look

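The knockout effect differed between xylem and cork, by the limma test of the difference, for 5 genes that the naming rule picked. COR47, described above, had a difference of 1.41 on the log2 scale, and its call was lost under 14 of 23 alternatives (adjusted p up to 0.22). The other 4 fell in cork, and none of them was called in xylem. In xylem AT2G48090 was higher on every knockout array, at values near the floor, so part of its difference came from there. MSRB5, a methionine sulfoxide reductase gene, was at 26.1, 37.6 and 27.0 in knockout cork and 99.8, 115.7 and 109.2 in Col-0 cork, but at 8.47 ± 2.87 and 7.43 ± 3.69 (SD, n = 3) in xylem, under 16 in both groups (difference 1.5, adjusted p = 3.4e-05). Its call held under all 22 alternatives that tested it. AT1G64360 was likewise under 16 in xylem and fell in cork from 198 ± 20.6 to 59.0 ± 21.9 (difference 1.25, adjusted p = 0.015, lost under 6 of 23 alternatives). AT2G48090 was at 6.0, 13.4 and 8.0 in knockout xylem and 3.3, 1.4 and 2.2 in Col-0 xylem, and fell in cork from 73.9, 57.6 and 55.2 to 40.0, 34.2 and 24.3 (difference 1.13, adjusted p = 0.0056, lost under 2 of 22). The xylem levels of these 3 genes lay under 16 in both groups. The plastid ribosomal protein gene rpl16 was at 584.2, 404.7 and 593.3 in knockout xylem against 642.9, 573.3 and 591.4 in Col-0, and fell in cork from 1060 ± 107 to 460 ± 86.6 (difference 0.98, adjusted p = 0.035, lost under 11 of 23 alternatives). Groups of 3 arrays are too small for a test of single outlying samples.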

How the results depend on the processing

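The 299 calls in xylem became 39 with only the 6 xylem arrays, where the spread rests on fewer samples. Leaving out 1 xylem array gave 174 to 373. Under the other 10 alternatives the count was 257 to 406, and with the replicate block it was 278. The count of probe sets called the same way in xylem and cork, 155, became 46 with only the 12 arrays of the 4 groups and 84 to 170 without 1 array, the lowest without MYB61 knockout xylem replicate 2. It was 138 with the replicate block. The 18 calls for the difference between tissues were the least settled. They became 10 with the filter at the 50th percentile, 200 with array weights, 6 with the scanner background as a covariate, 3 with only the 12 arrays, 20 with the replicate block, and 6 to 150 without 1 array, with 150 without MYB61 knockout cork replicate 1, 33 without Col-0 xylem replicate 1, 32 without Col-0 cork replicate 3, 11 without MYB61 knockout cork replicate 2, 9 without MYB61 knockout xylem replicate 1 and 6 without Col-0 cork replicate 2; the cause was not tested. None of the named genes that were called changed direction under any alternative. Of 55 called genes named as largest changes or list members, 11 kept their call under all alternatives that tested them. Another 17 lost it under no alternative but the fit on the 6 xylem arrays. That fit lost 21 of the 28 rises and 22 of the 27 falls. Called genes added only for having a symbol are not in these counts, and each of them lost its call in that fit. Genes near 16 are poorly measured: of the 25 largest falls, 4 had a knockout mean under 16.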
